A study of Mus musculus with 19 samples.

Results

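The Ifit and Oas interferon-induced effectors are antiviral proteins whose genes are switched on when a cell responds to interferon. They were followed here in medulloblastoma allografts treated with NVP-LDE225, a compound that blocks Smoothened, the membrane protein that passes on the Hedgehog signal. The set was given by name and holds 10 genes, namely Ifit1, Ifit2, Ifit3, Oasl1, Oasl2, Oas2, Isg15, Usp18, Ifi35 and Ifi44, out of 18193 genes with a probe set of their own. A probe set is a group of short array probes read out as a single signal. All probe sets annotated to these symbols were taken, which gave 11. Of the 10 genes, 8 had at least 1 probe set of their own and all of these 8 passed the filter on low values, which asked for a signal above the 40th percentile of the array on 3 arrays or more. Each was above it on at least 9 of 16 treated arrays, so none passed through the vehicle tumours alone. Isg15 was represented only by a probe set that also lists the pseudogene Gm9706, and no probe set used here was annotated to Ifi44. The genes were chosen by their signal differences between resistant and vehicle tumours, so those differences from vehicle are a description and were not tested.

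Each of the 19 arrays held RNA from 1 tumour. All tumours were medulloblastomas of the genotype Ptch+/-p53-/-, started from dissociated tumour cells placed under the skin of nu/nu mice. Such nude mice lack a thymus and therefore most T cells, and they keep macrophages, natural killer cells and other innate immune cells. Vehicle was given to mice with 3 of the tumours, labelled sensitive. NVP-LDE225 was given at 40 mg/kg for 8 tumours and at 160 mg/kg for another 8, and these 16 were labelled resistant. Among the source names, those of 160 mg/kg tumours 6 and 7 read resistant and those of the other 14 read treated. Treatment and resistance cannot be told apart, since no treated tumour was labelled sensitive. The labels do not state that each tumour grew in a separate animal, and p-values therefore cover only the spread among these tumours. All 15 listed granule neuron lineage and Hedgehog genes, which mark this tumour type, passed the filter, and their summed signal ran from 13900 to 14600 in vehicle tumours, from 17600 to 21000 at 40 mg/kg and from 13700 to 23000 at 160 mg/kg. In resistant tumours 3 of the 15 rose and 0 fell (limma adjusted p under 0.05), where 2.84% of all genes were called higher and 2.45% lower. The 3 were the transcription factors Nhlh2 (log2 difference 1.05, limma adjusted p = 0.000838), Neurod1 (1.22, limma adjusted p = 0.0125) and Zic1 (0.51, limma adjusted p = 0.0179). They passed in 3, 1 and 0 of the 3 fits that left out a vehicle tumour. Of the 15 genes 6 had a log2 difference under 0, among them Sfrp1 (-0.90), Atoh1 (-0.87), Ptch1 (-0.61) and Barhl1 (-0.59). The part of these 15 genes in the lower effector signals was not tested. Median signals of the arrays lay between 32.7 and 49.7. Vehicle tumour 3 and 160 mg/kg tumour 2 were least like the other arrays, with mean correlations of log2 signal of 0.927 and 0.93.

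Interferons are secreted proteins that bind receptors on the cell surface and activate the kinases Jak1 and Tyk2. These kinases pass the signal to transcription factors such as Irf9, which bind a DNA element called the interferon-stimulated response element in front of responsive genes. The Ifit proteins bind viral RNA or take part in antiviral signalling, the Oas proteins sense double-stranded RNA and switch on an RNA-degrading enzyme, Isg15 is a ubiquitin-like modifier, and Usp18 removes Isg15 from proteins and dampens the interferon receptor. Tumour cells and the immune and stromal cells around them can all express these genes. In bulk tumour RNA, fewer cells of an expressing type and less RNA per cell cannot be told apart.

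Promoter windows from 250 bases before to 50 after the start of a gene were available from RefSeq on build GRCm38.p6 for 8 of the 10 genes, without Oas2 and Usp18. They are shown because the genes varied together across tumours and the response element is known to control this class of gene. The core of the element was searched on both strands as GAAA, any 2 bases and GAAA again, which reads TTTC, any 2 bases and TTTC on the other strand. It was present in the windows of Ifit1 (2 matches), Ifit3 (2 matches) and Isg15 (3 matches that overlap each other), and absent from those of Ifit2, Oasl1, Oasl2, Ifi35 and Ifi44. Of all 27025 genes with a window, 3.99% held at least 1 match. The Ifit1 matches began 104 and 85 bases before the start and the Ifit3 matches 156 and 122 bases before it. Stretches of 120 bases follow, read along the gene, with the matches in capitals. The Oasl1 stretch is a window without a match.
Ifit1, chr19:34640749-34640868, plus strand: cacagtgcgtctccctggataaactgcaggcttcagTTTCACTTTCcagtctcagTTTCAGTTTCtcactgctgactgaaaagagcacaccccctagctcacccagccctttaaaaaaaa
Ifit3, chr19:34583349-34583468, plus strand: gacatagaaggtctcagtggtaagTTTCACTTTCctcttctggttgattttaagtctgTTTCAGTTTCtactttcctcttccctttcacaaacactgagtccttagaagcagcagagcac
Isg15, chr4:156200839-156200958, minus strand: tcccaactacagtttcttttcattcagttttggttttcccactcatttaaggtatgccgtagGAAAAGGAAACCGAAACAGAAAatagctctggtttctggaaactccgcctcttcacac
Oasl1, chr5:114923050-114923169, plus strand: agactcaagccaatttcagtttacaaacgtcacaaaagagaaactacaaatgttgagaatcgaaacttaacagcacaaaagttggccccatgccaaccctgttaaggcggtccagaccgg
The Ifit1 and Ifit3 stretches carry the same pair of matched letters, TTTCACTTTC followed by TTTCAGTTTC, at different spacing. A match is a description of these letters and not a measured binding site. The core of the gamma-activated site, TTCNNNGAA, was found in the windows of Ifit2 and Ifi35, against 9.55% of all genes. Ifit2 had more than 1 window and only 1 held the match, 241 bases before the start. The Ifi35 match began 7 bases after the start. The Ifit3 window matched that of its neighbour Ifit3b in 259 of 260 aligned bases, and whether the Ifit3 probe set separates these copies was not tested.

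Ifit1, an effector that binds viral RNA with foreign cap structures, had signals of 483, 760 and 580 in vehicle tumours 1, 2 and 3. At 40 mg/kg the lowest signal was 43.7, the median 90.4 and the highest 377, and at 160 mg/kg these were 18.8, 58.0 and 177. All treated tumours lay below all vehicle tumours. The high signals at 40 mg/kg were those of tumours 6 (377) and 8 (338), and the next highest was 106 in tumour 4. Ifit1 was 5.23-fold lower at 40 mg/kg and 9.99-fold lower at 160 mg/kg than in vehicle tumours, as ratios of geometric means of signal plus 2.5. The log2 differences from vehicle were -2.39 (SE 0.57) and -3.32 (SE 0.57).

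Ifit2, which has been linked to cell death as well as to antiviral defence, had a smaller difference and the groups overlapped. Its vehicle signals were 265, 286 and 367. The lowest, median and highest signals were 44.6, 160 and 230 at 40 mg/kg, and 49.5, 158 and 270 at 160 mg/kg. In 15 of 16 treated tumours Ifit2 was below all vehicle tumours, the exception being 160 mg/kg tumour 3 at 270. The log2 difference from vehicle was -1.13 at 40 mg/kg and -1.14 at 160 mg/kg (SE 0.48 each).

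Ifit3, which binds and stabilises Ifit1 in human cells, had vehicle signals of 146, 222 and 228. Its lowest, median and highest signals were 54.7, 108 and 146 at 40 mg/kg, and 43.6, 65.6 and 172 at 160 mg/kg. The highest 40 mg/kg signal (145.6) was just under the lowest vehicle signal (146.1), and 160 mg/kg tumour 1 lay above vehicle tumour 1, so the groups touched or overlapped. The log2 differences from vehicle were -0.98 and -1.46 (SE 0.33 each).

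Oasl1, an Oas-like protein that restrains translation of the transcription factor Irf7, had narrow vehicle signals of 341, 401 and 352. At 40 mg/kg it ran from 39.3 over a median of 57.3 to 243, and at 160 mg/kg from 20.2 over 50.7 to 106. All 16 treated tumours lay below all vehicle tumours. It was 4.54-fold lower at 40 mg/kg and 6.69-fold lower at 160 mg/kg, with log2 differences of -2.18 and -2.74 (SE 0.48 each).

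Oasl2, a related Oas-like protein that lies next to Oasl1 on chromosome 5, had vehicle signals of 520, 766 and 644. Its lowest, median and highest signals were 71.8, 113 and 537 at 40 mg/kg, and 38.2, 73.3 and 198 at 160 mg/kg. The signal of 537 in 40 mg/kg tumour 6 lay inside the vehicle range, and the other 15 treated tumours lay below it. The log2 differences from vehicle were -2.16 and -3.14 (SE 0.53 each).

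Oas2, an oligoadenylate synthetase proper, had the smallest log2 difference of the set at 40 mg/kg and in the mean of both doses, but not at 160 mg/kg, where that of Ifit2 was smaller, and low signals throughout. Its vehicle signals were 38.5, 68.7 and 66.8. At 40 mg/kg the lowest, median and highest were 17.8, 33.3 and 54.4, and at 160 mg/kg 12.6, 19.3 and 57.9. Only 12 of 16 treated tumours were below all vehicle tumours, and 9 of 16 exceeded the filter level of their array. The log2 differences from vehicle were -0.70 and -1.25 (SE 0.36 each).

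Usp18, the Isg15 protease and brake on the interferon receptor, varied most among vehicle tumours, at 260, 596 and 415. At 40 mg/kg it had a lowest signal of 69.8, a median of 95.1 and a highest of 363, and at 160 mg/kg 27.4, 68.2 and 287. Tumour 6 at 40 mg/kg and tumour 1 at 160 mg/kg overlapped with the vehicle range, and the other 14 treated tumours were below it. The log2 differences from vehicle were -1.69 and -2.57 (SE 0.55 each).

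Ifi35, an interferon-induced leucine zipper protein, was covered by 3 probe sets. The brightest had vehicle signals of 612, 887 and 859. Its lowest, median and highest signals were 152, 230 and 495 at 40 mg/kg, and 85.7, 131 and 281 at 160 mg/kg. All 16 treated tumours were below all vehicle tumours on each of the 3 probe sets. The log2 differences of resistant from vehicle tumours were -2.04 (SE 0.31), -1.70 (SE 0.50) and -1.39 (SE 0.22) on the 3 probe sets, so they had the same direction and differed in size.

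The probe set that lists both Isg15 and Gm9706 had signals of 804, 1195 and 951 in vehicle tumours. At 40 mg/kg the lowest, median and highest signals were 121, 191 and 930, and at 160 mg/kg 63.1, 180 and 455. Only 40 mg/kg tumour 6, at 930, lay inside the vehicle range. Because this probe set is not specific to a single gene, it entered none of the counts of genes.

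**Figure D1:**
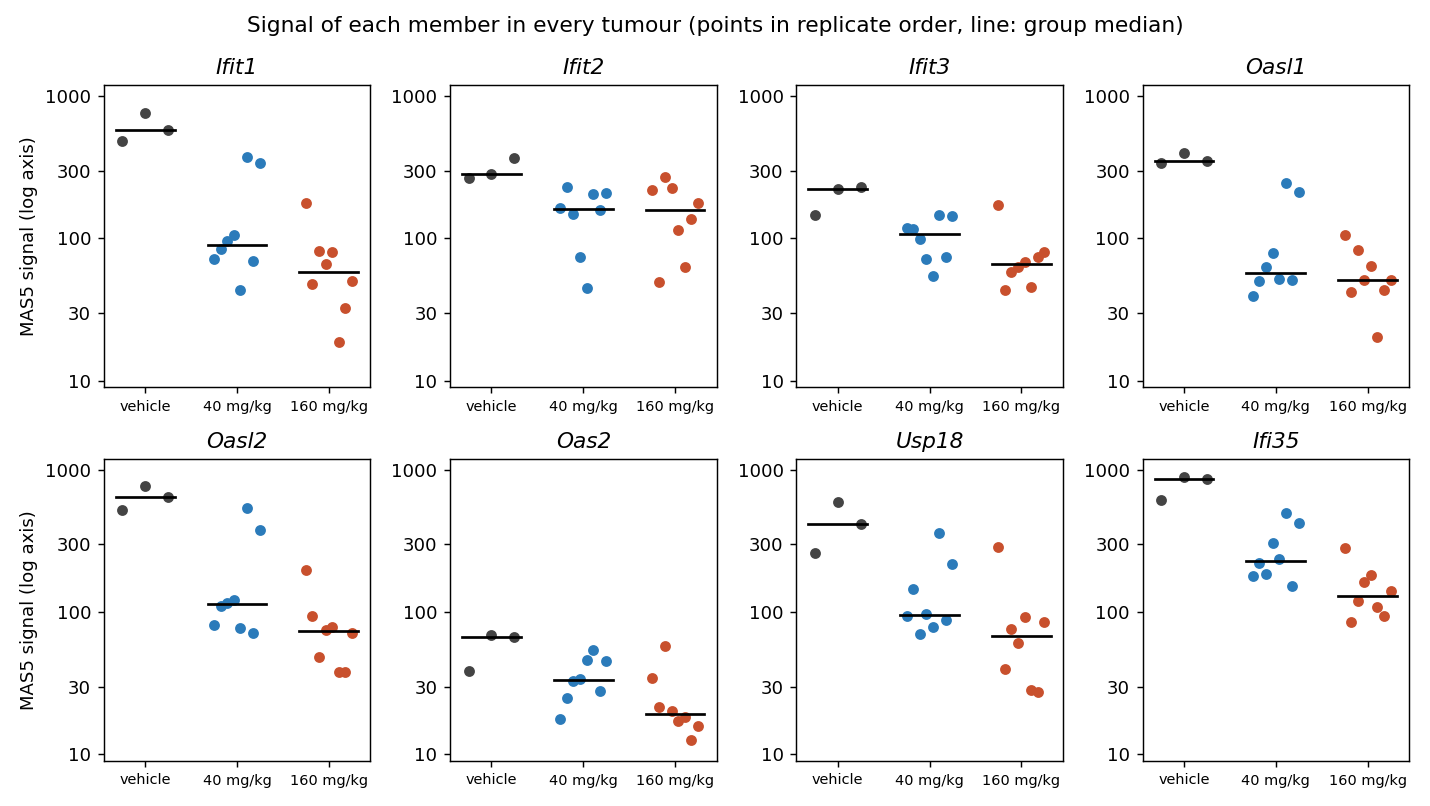
MAS5 signal on a log axis in every tumour for the 8 genes with a probe set of their own, with vehicle, 40 mg/kg and 160 mg/kg tumours from left to right in each panel, points in replicate order and a line at the group median. Treated tumours lay mostly below vehicle tumours, 40 mg/kg tumours 6 and 8 were the highest at that dose for Ifit1, Ifit3, Oasl1, Oasl2, Usp18 and Ifi35, and Ifit2, Ifit3, Oasl2, Oas2 and Usp18 had at least 1 treated tumour at or above the lowest vehicle tumour.

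Across the 8 genes, the log2 difference of resistant from vehicle tumours (mean of both doses) had a median of -2.08 and ran from -2.85 for Ifit1 to -0.97 for Oas2, where the median over all 13454 genes was -0.06. For 3 of 8 genes (Ifit1, Oasl1 and Ifi35) all treated tumours lay below all vehicle tumours, which held for 2.53% of all genes. The choice of the genes used this contrast, so nothing is read from that count. The 2 dose groups share the same 3 vehicle tumours, and their median differences from vehicle over the 8 genes were -1.65 at 40 mg/kg and -2.52 at 160 mg/kg. With 1 probe set per gene, Ifit1, Oasl1, Oasl2, Usp18 and Ifi35 had larger differences (each -2.04 or lower). Those of Ifit2 (-1.13), Ifit3 (-1.22) and Oas2 (-0.97) were smaller. Ifi35 stands here by its brightest probe set, and its other probe sets gave -1.70 and -1.39, between these groups. On the log2 scale the SD was 0.12 to 0.59 among vehicle tumours, 0.49 to 1.08 at 40 mg/kg and 0.55 to 1.07 at 160 mg/kg, so treated tumours mostly varied more than the 3 vehicle tumours.

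The genes were chosen on resistant against vehicle tumours and not on the contrast between the doses. That choice was made with earlier results of the same data known, so counts in the dose contrast are a description. At 160 mg/kg all 8 genes had lower means than at 40 mg/kg, by 0.01 to 0.98 on the log2 scale with a median of -0.72, and no difference passed the test. Oasl2 differed by -0.98 (95% interval -1.79 to -0.16; limma adjusted p = 0.676), Ifit1 by -0.93 (-1.82 to -0.05; limma adjusted p = 0.718) and Ifi35 by -0.88 (-1.40 to -0.36; limma adjusted p = 0.64). Usp18 differed by -0.87, Oasl1 by -0.56, Oas2 by -0.55 and Ifit3 by -0.49. Ifit2 differed by -0.01 (-0.75 to 0.73), a value whose sign turned to 0.04 with quantile normalization and to 0.05 with array medians subtracted. With limma, 0 of 8 genes and 0% of all 31143 probe sets were called. At an unadjusted limma p under 0.05 and in the lower direction there were 4 of 8 (Ifit1, Oasl2, Usp18 and Ifi35), against 4.5% of all genes. These 4 varied together across treated tumours, with r from 0.83 to 0.91 between them after subtraction of each dose mean. They are therefore not separate observations. In none of the 8 genes did all 160 mg/kg tumours lie below all 40 mg/kg tumours, which held for 0.0149% of all genes. Without 40 mg/kg tumours 6 and 8, a pair left out after their values were seen, the median difference of the 8 genes was -0.38 in place of -0.72.

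**Figure D2:**
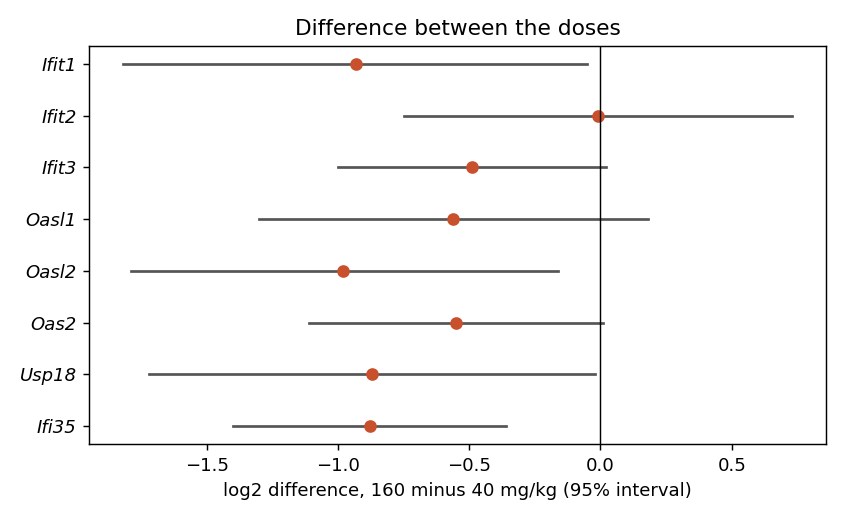
Difference of mean log2 signal between the 160 and 40 mg/kg tumours (8 each) for each gene, with points for the estimate and lines for the 95% interval from the limma fit, which is not adjusted for the number of genes. All points lie at or below 0, the intervals of Ifit2, Ifit3, Oasl1 and Oas2 include 0, and none of the 8 differences passed after adjustment.

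Treated tumours differed widely in the level of the whole set. In 40 mg/kg tumour 6 the mean log2 signal of the 8 genes minus the vehicle mean was -0.41, and 7 of 8 genes were among the 3 highest of all treated tumours. Tumour 8 at 40 mg/kg had -0.66 and tumour 1 at 160 mg/kg had -1.05, with 6 and 5 genes among the 3 highest. In the remaining 13 treated tumours it ran from -3.14 to -1.69. The lowest was 160 mg/kg tumour 6 (-3.14), with 7 of 8 genes among the 3 lowest, followed by tumours 7 (-2.79) and 2 (-2.71) at the same dose. A few genes departed from this order. In 160 mg/kg tumour 3 the signals of Ifit2 (270) and Oas2 (57.9) were the highest of all treated tumours, whereas Oasl2 was 48.7 there, below the group median. In 40 mg/kg tumour 5 Ifit1, Ifit2 and Ifit3 were the lowest of the dose group, while Oas2 was 46.2, above its median.

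**Figure D3:**
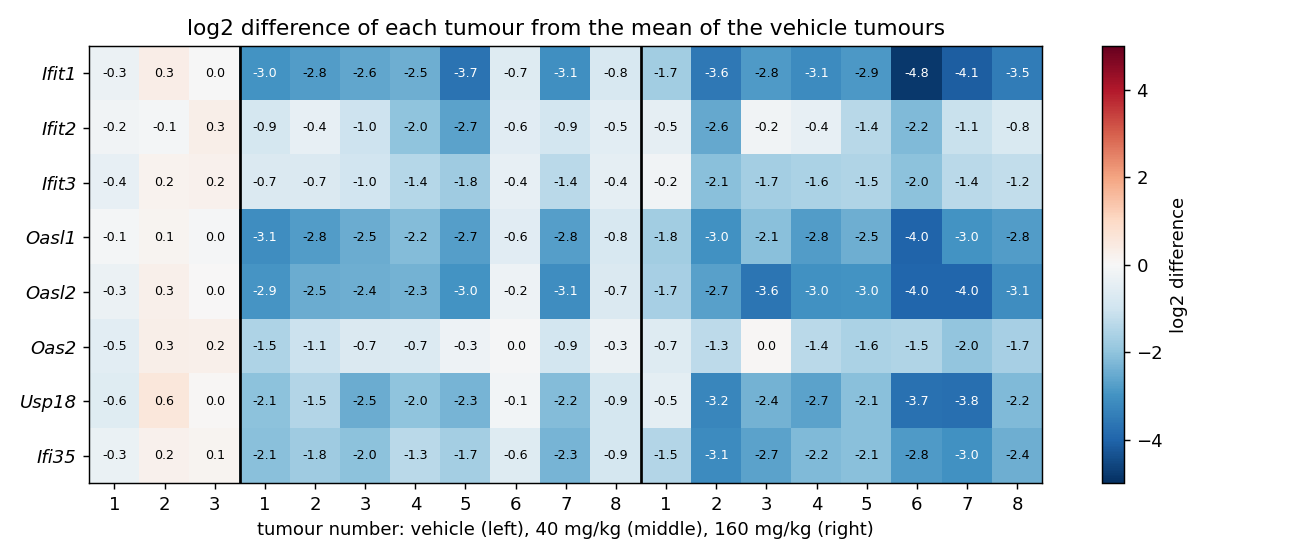
Log2 difference of each tumour from the mean of the 3 vehicle tumours, with the 8 genes in rows and the tumours in columns, vehicle on the left, 40 mg/kg in the middle and 160 mg/kg on the right. Tumours 6 and 8 at 40 mg/kg are the palest treated columns, and 160 mg/kg tumours 2, 6 and 7 are among the darkest.

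Across the 16 treated tumours, after subtraction of each dose mean, the 28 pairs of genes had Pearson correlations of log2 signal from 0.11 to 0.95 with a median of 0.665, and Spearman's rho from -0.04 to 0.91. These are given as a description, since all values of a tumour come from 1 array with its own scaling. Ifit1 and Oasl1 were the closest pair (r 0.95, rho 0.91), followed by Ifit1 and Oasl2 (r 0.91, rho 0.85). Ifit1 lies on chromosome 19 and the Oasl genes on chromosome 5, so these pairs are not neighbours. Ifit3 and Oas2 were the least alike (r 0.11, rho -0.04). Within the Ifit cluster of chromosome 19, Ifit1 had r 0.59 with Ifit2 and 0.73 with Ifit3, and Ifit2 and Ifit3 had r 0.71. Without the 2 tumours farthest from the median of the set, 160 mg/kg tumour 1 and 40 mg/kg tumour 6, Ifit1 and Oasl1 kept r 0.92, the median of all pairs was 0.56, and the range was -0.29 to 0.92.

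**Figure D4:**
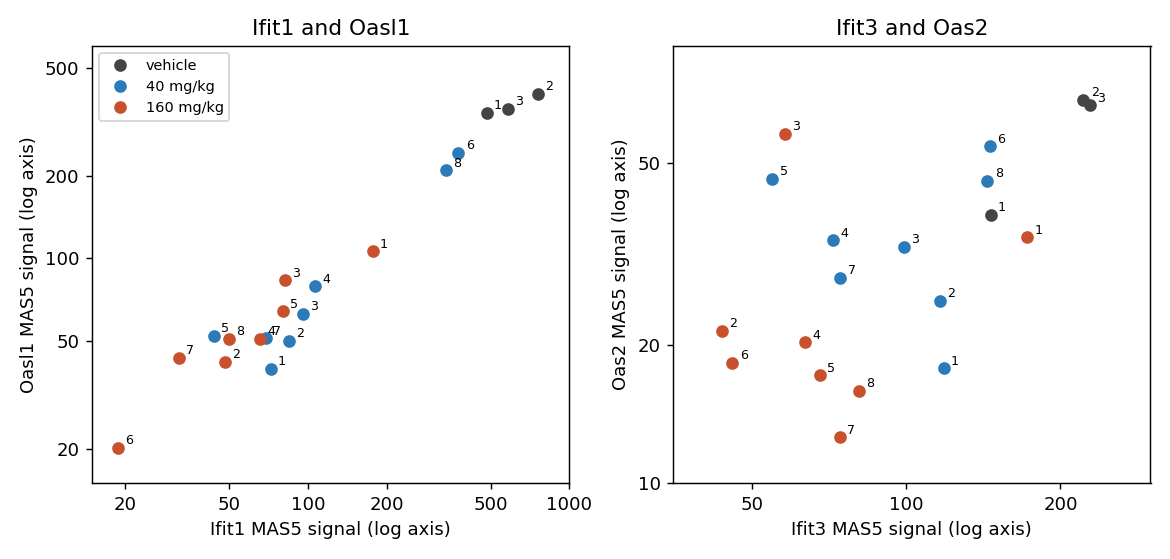
MAS5 signals on log axes of the closest pair, Ifit1 and Oasl1 (left), and of the least alike pair, Ifit3 and Oas2 (right), with a numbered point per tumour coloured by group. On the left the tumours follow a single line from 160 mg/kg tumour 6 at the lower end to the vehicle tumours at the upper end, and on the right the treated tumours are scattered (r 0.95 and 0.11 over the 16 treated tumours).

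The genes whose pattern was most like the mean of the set over the 16 treated tumours were taken from 13454 genes by Pearson's r after subtraction of each dose mean. The closest was Rnf213, a large ubiquitin ligase (r 0.95, rho 0.90), followed by Samd9l and Rtp4 (r 0.95 each), Irgm1 (0.93), Herc6 (0.92), the mitochondrial nucleotide kinase Cmpk2 (0.92), the guanylate-binding proteins Gbp2 and Gbp3 (0.91 each), Rsad2 (0.90) and Gbp7 (0.90). Of these 10 genes, 8 were in the interferon lists and Rnf213 and Gbp7 were not. Without the same 2 tumours the values ran from 0.84 for Rsad2 to 0.91 for Samd9l. Within the 40 mg/kg group they ran from 0.90 to 0.97, and within the 160 mg/kg group from 0.84 to 0.95. Only 24 genes outside the set had r over 0.8, of which 16 were among the 83 measured interferon list genes.

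Other genes of the interferon pathway were read from lists arranged by role, without the 10 genes above. These lists were chosen with earlier results of the same data known. Counts and p-values of their genes are therefore not independent support for the differences of the effectors. In resistant against vehicle tumours 33 of 83 measured genes fell and 0 rose with limma at an adjusted p under 0.05, where 5.29% of all genes were called, 2.45% lower and 2.84% higher, and 77 of 83 had a log2 difference under 0. Their median log2 difference was -0.88 against -0.06 over all genes. The calls rest on the 3 vehicle tumours: 22, 10 and 6 genes were called without vehicle tumours 1, 2 and 3. Of the 33 genes 6 (Cgas, Slfn8, Ifitm3, Rtp4, Tapbp and Psmb10) were called in all 3 of these fits and 11 in 0. Over all probe sets 822 (2.64%) were called higher and 570 (1.83%) lower, and with array medians subtracted 825 and 199. Without vehicle tumours 1, 2 and 3 the total of 1392 became 428, 474 and 239.

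Of the interferon ligands 8 of 13 had a probe set of their own and 0 passed the filter. The highest ligand signal on any array was 38.1, for Ifna1, which is near the array medians. Among receptors and signal transducers 4 of 16 genes fell. They were Irf9, a DNA-binding factor of the interferon response (log2 difference -1.05, SE 0.20, limma adjusted p = 0.00542), Irf1 (-1.06), Irf7 (-1.15) and the feedback inhibitor Socs3 (-0.67). When a single vehicle tumour was left out, Irf9 passed in 2 of 3 fits, Irf7 in 1 and Irf1 and Socs3 in 0. The receptor subunits Ifnar1 (0.03) and Ifnar2 (0.53) and the transducer Stat2 (-0.03), singled out for their place in the pathway after their values were seen, did not pass (limma adjusted p = 0.952, 0.224 and 0.952).

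Among nucleic acid sensors and adaptors 6 of 13 genes fell, with a list median of -1.08. The helicase Ddx60 (log2 difference -2.55, limma adjusted p = 0.00946) had mean signals of 359 (SD 97.4, n = 3) in the vehicle group, 107 (SD 92.0, n = 8) in the 40 mg/kg group and 47.4 (SD 24.7, n = 8) in the 160 mg/kg group. The DNA sensor Cgas had a log2 difference of -1.16 (SE 0.22, limma adjusted p = 0.00517), its adaptor Sting1 -1.08 and the RNA sensor Ddx58 -1.15. With a single vehicle tumour left out Cgas passed in 3 of 3 fits, Sting1 and Ddx58 in 2 and Ddx60 in 1. Of the 4 enzymes that attach Isg15 to proteins, the ligase Herc6 fell (log2 difference -1.83, limma adjusted p = 0.0131, past the threshold in 1 of these 3 fits), and Uba7 (-0.80), Ube2l6 (-0.79) and Trim25 (-0.29) did not pass.

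Of 35 other interferon-induced effectors 14 fell, with a median of -0.92. Among them were Slfn8 (log2 difference -2.15, SE 0.27, limma adjusted p = 0.000417), the membrane protein Ifitm3, which blocks virus entry (-1.87), Rtp4 (-1.87) and Parp12 (-1.74), and Parp12 passed in 2 of the 3 fits. Of 15 genes induced mainly by interferon gamma 8 fell, with a median of -1.31. Among these were the peptide loading protein Tapbp (-1.18), the immunoproteasome subunit Psmb10 (-1.45), the GTPase Irgm1 (-1.70) and Gbp3 (-2.06), of which Irgm1 and Gbp3 passed in 1 of the 3 fits. All 15 had a log2 difference under 0. Cxcl9 (-0.41, limma adjusted p = 0.711) and Ciita (-0.19, limma adjusted p = 0.823), singled out after their values were seen, did not pass. Their mean signals in vehicle tumours were low, at 27.1 and 22.4. Between the doses 0 of the 83 genes were called with limma and 31 had an unadjusted p under 0.05, of which 30 were lower at 160 mg/kg, where 4.5% of all genes were lower at that level. The median log2 difference for 160 minus 40 mg/kg was -0.45 over the 83 genes and -0.02 over all genes. Many of these genes varied together across treated tumours, with r over 0.8 to the mean of the 8 effectors for 16 of the 83. The 31 are therefore not separate observations. The 35 other effectors summed to 10000 and 9830 in 40 mg/kg tumours 6 and 8, against 4180 to 6100 elsewhere at that dose. The part of these tumours in the count of 31 was not tested.

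**Figure D5:**
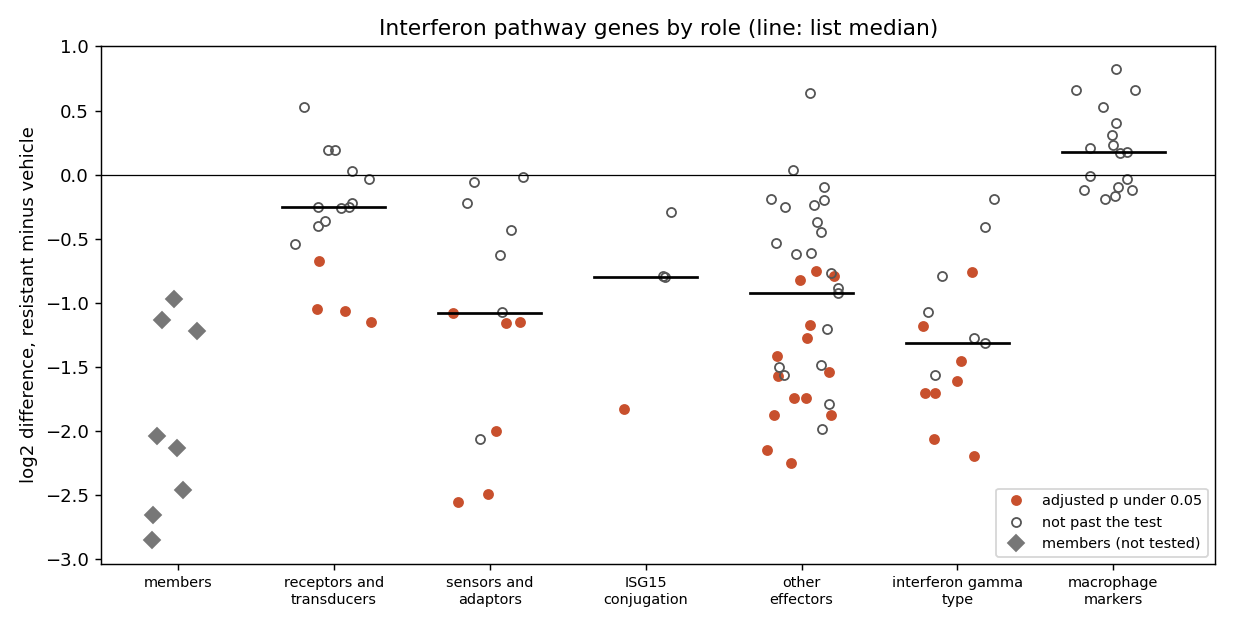
Log2 difference of resistant from vehicle tumours for each measured gene, with the 8 effectors as diamonds on the left (not tested), the interferon lists by role and macrophage markers on the right, filled points for an adjusted p under 0.05 and a line at each list median. Among the interferon lists medians were lowest for genes induced mainly by interferon gamma (-1.31) and for sensors and adaptors (-1.08), the median of the 17 macrophage markers was 0.18, and the 8 effectors, chosen on this contrast, had a median of -2.08.

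The genes next to the 8 effectors on their chromosomes were read to see the difference in its genomic surroundings. The nearest measured genes outside the interferon lists were 10 in number, with log2 differences of resistant from vehicle tumours from -0.50 for Pank1 to 0.79 for Dtx1 and a median of -0.04. On chromosome 19 the Ifit cluster is flanked by Lipa (-0.29) and Pank1 (-0.50), and neither passed (limma adjusted p = 0.597 and 0.185). Dtx1, which lies beside Oas2 on chromosome 5, was the 1 gene called, and it was higher (limma adjusted p = 0.0409, past the threshold in 0 of the 3 fits that left out a vehicle tumour).

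Markers of other cells in the grafts were read beside these results, and their part in them was not tested. Of 18 macrophage and microglia markers 17 passed the filter and 0 were called, and their summed signal ran from 2000 to 3420 in vehicle tumours, from 1640 to 6000 at 40 mg/kg and from 1450 to 12200 at 160 mg/kg. The highest sum, 12200, was that of 160 mg/kg tumour 6, the tumour with the lowest effector signals. The tumours next lowest in effector signals, 160 mg/kg tumours 7 and 2, had sums of 5510 and 1530. Tumours 6 and 8 at 40 mg/kg and tumour 1 at 160 mg/kg, which had the highest effector signals of the treated tumours, had macrophage sums of 4940, 2790 and 1660. Of 7 natural killer cell markers with a probe set of their own 1 passed the filter (Prf1, log2 difference -0.32, limma adjusted p = 0.54), of 8 dendritic cell markers 3 and of 7 neutrophil markers 4, with 0 called among these, and of 7 T and B lymphocyte markers 0 passed. The summed signal of the 3 dendritic cell markers (Itgax, Cd209a and Zbtb46) ran from 66.4 to 73.1 in vehicle tumours, from 71.1 to 180 at 40 mg/kg and from 37.8 to 226 at 160 mg/kg, and 14 of 16 treated tumours lay above all vehicle tumours. Of these genes Zbtb46 exceeded every vehicle signal in 15 of 16 treated tumours (log2 difference 1.28, limma adjusted p = 0.111). The summed signal of the 4 neutrophil markers ran from 35.9 to 131 with vehicle, from 37.4 to 262 at 40 mg/kg and from 35.8 to 72.9 at 160 mg/kg. The dendritic cell markers Siglech and Flt3, the natural killer cell marker Ncr1 and the T cell markers Cd3e and Cd3g were among those below the filter. Among 10 endothelial markers Flt1 fell (log2 difference -0.71, limma adjusted p = 0.0217, past the threshold in 1 of the same 3 fits), and their summed signal ran from 561 to 820 with vehicle, from 461 to 744 at 40 mg/kg and from 435 to 604 at 160 mg/kg, with 10 of 16 treated tumours below all vehicle tumours. Fibroblast sums (9 markers, 0 called) ran from 3090 to 6680, from 3110 to 6570 and from 1810 to 7750, and skeletal muscle sums (9 markers, 0 called) from 644 to 3340, from 132 to 19800 and from 127 to 9480.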

How the data were processed

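The authors deposited 1 linear intensity per probe set and array, computed with MAS5, per the submitters' processing notes. MAS5 summarises the probes of a probe set and scales each array separately, and all arrays had a 2% trimmed mean of 150. The table has 45101 probe sets, named through the platform table for these probe sets, although the series text gives a smaller array. The genome build, scaling target and detection calls are not given in the sources used here.

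After removal of 64 control probe sets, log2 of signal plus 2.5 (the 10th percentile of all values) was tested without further normalization. A probe set was kept if at least 3 arrays had it above their own 40th percentile, leaving 31143 probe sets and 13454 genes. limma 3.58.1 (lmFit, eBayes with trend) fitted 3 group means with 16 residual degrees of freedom in R 4.3.3, and p-values are two-sided with Benjamini-Hochberg adjustment over all kept probe sets. The fit was tested on simulated data. A gene was represented by its kept probe set with the highest mean. Named genes were all members, up to 4 genes per list with the smallest p, chromosomal neighbours and the 10 most alike genes. Members and lists were chosen with earlier results of these data known. The alternatives were other normalizations, pseudocounts, filters and variance models, array weights, a replicate block and leaving out arrays. Same-numbered tumours had correlated deviations over 0.1 in 0 of 14 pairs, so no sign of pairing by number was seen. A low correlation over whole arrays cannot exclude such a pairing. The number of arrays limits the precision.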

Additional observations from a re-analysis of the deposited data

Results flagged for a closer look

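In the 160 mg/kg group the Ifit3 signal of tumour 1, at 172, stood apart from the other 7 tumours, with a gap to the next value of 0.558 of the group's log2 range, above Dixon's 95% critical value for 8 samples. It was 1 of 22 gene and dose groups compared in this way, and chance flags about 1 group in 20.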

How the results depend on the processing

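The log2 differences of the 8 genes from vehicle kept their direction under all 247 alternative values. Their median, -2.08, ran from -2.32 without vehicle tumour 1 to -1.78 with array weights. Some values moved by more than the SD among the vehicle tumours. Oasl1, with a vehicle SD of 0.12, went from -2.46 to -2.22 when 16 was added to the signal in place of 2.5. Of 255 alternative values for 160 against 40 mg/kg, 241 kept their direction and 0 passed the test. The other 14 were all of Ifit2, whose -0.01 became 0.04 with quantile normalization, 0.05 with array medians subtracted, 0.04 with array weights, 0.19 without the 2 arrays least like the others and 0.19 without 40 mg/kg tumours 6 and 8, and ran from -0.23 to 0.19 when 1 array was left out. The filter at the 60th percentile removed Oas2. Resistant against vehicle, 1392 probe sets were called, 8907 with array weights, 819 with the replicate block, 274 without the 2 least alike arrays and 239 (without vehicle tumour 3) to 1674 without 1 array. Of the other interferon pathway genes 33 were called, 55 with array weights, 15 with the replicate block, 8 without the 2 least alike arrays and 6 (without vehicle tumour 3) to 38 without 1 array. Between the doses 0 probe sets were called, 1 without the variance trend, 6 without 40 mg/kg tumours 6 and 8, and 0 with the replicate block. Leaving out the 2 least alike arrays and leaving out 40 mg/kg tumours 6 and 8 were chosen after seeing the data, and the causes of these changes were not tested. Oas2 was near the filter level, above it on 9 of 16 treated arrays.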

Other observations

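Hedgehog pathway genes were set beside the effectors in the same treated tumours after their values had been seen, and the relations are descriptions. Over the 16 treated tumours, after subtraction of each dose mean, the mean log2 signal of the 8 effectors had Pearson's r of 0.67 (rho 0.61) with Gli1, a transcription factor and target of Hedgehog signalling, 0.66 (rho 0.66) with the receptor and target gene Ptch1, and -0.62 (rho -0.54) with the transcription factor Gli2. Without 160 mg/kg tumour 1 and 40 mg/kg tumour 6 these were 0.66, 0.72 and -0.48. Ordered from the highest r over the 16 treated tumours, Gli1 ranked 111, Ptch1 121 and Gli2 13316 of 13454 genes. Within the 40 mg/kg group r was 0.49 for Gli1, 0.59 for Ptch1 and -0.94 for Gli2, and within the 160 mg/kg group 0.88, 0.74 and -0.40. Gli1 signals were highest in 160 mg/kg tumour 1 (2638) and 40 mg/kg tumour 8 (2286), which were among the 3 treated tumours with the highest effector signals, and Gli1 was 215 in 40 mg/kg tumour 6, the other of these. The next highest Gli1 signal was 598 in 40 mg/kg tumour 7, where the mean of the effectors minus the vehicle mean was -2.08. Vehicle tumours had Gli1 signals of 320, 327 and 338. Gli2 signals in 40 mg/kg tumours 6 and 8 were 578 and 547, against 1910 to 2502 in the other 6 tumours at that dose and 573, 631 and 645 in vehicle tumours.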
